A study of Mus musculus with 2 samples.

Results

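Inhibitory and Fc receptor genes of B cells, with the phosphatase that many of them recruit, 10 in all, were followed in B cells of the mouse heart: the inhibitory receptors Cd22, Cd72, Fcgr2b, Siglecg and Pirb, the Fc receptor-like genes Fcrla, Fcrl1 and Fcrl5, the IgM Fc receptor Fcmr, and Ptpn6, which encodes the phosphatase SHP-1. They were listed by name, and are 10 of the 31053 genes in the deposited tables. All 10 had transcripts in the B cells of both libraries. The neonatal library came from hearts of 6 C57BL6/J mice at 2 weeks of age (15 days in its title), with males and females pooled, and the adult library from hearts of 6 male C57BL6/J mice at 8 weeks. In both, live CD45+ B cells had been sorted by surface staining after Fc receptors were blocked with antibody, and mRNA was read at its 3′ end in droplets and counted as unique molecular identifiers (UMIs), so that copies of 1 captured molecule count once. Neither group carried a transgene or a treatment. A droplet was taken as a B cell when it had at least 2000 gene UMIs, at most 10% of them from mitochondrial genes, and a UMI of Cd79a, a chain of the B cell receptor complex. This left 2077 neonatal and 3611 adult cells, 5688 in all.

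Inhibitory receptors of B cells carry tyrosine motifs (ITIMs) in their cytoplasmic tails. When the B cell receptor is engaged, the kinase Lyn phosphorylates these motifs, and the phosphatases SHP-1 and SHIP-1 bind them and dampen the signal. Receptors of this kind set the threshold for activation and keep innate-like B1 cells in check, and Fc receptors feed back bound antibody on the cell that could make more of it.

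Levels are given as UMIs per 1000000 gene UMIs (CPM). The B cell genes Cd79b and Ms4a1 (CD20) were at 1800 and 1347 CPM in the neonatal cells and at 1263 and 1154 CPM in the adult cells. The libraries held 26866958 and 49500780 gene UMIs over all barcodes. Median depth was 6000 and 6131 UMIs per cell, and cells of both libraries held 61.1% and 69.9% of all gene UMIs of their library. Of the markers of other cells, those of macrophages summed to 90.4 CPM in neonatal and 16.3 CPM in adult cells, and those of neutrophils to 27.1 and 0.0289 CPM. The cells also differed in maturity: 4 of 6 transitional genes (Cd93, Vpreb3, Spib and Sox4) were at least 1.5-fold lower in the adult library, while the follicular genes Fcer2a and Ighd were at least 1.5-fold higher and Cxcr5 lower. There were 110 droplet barcodes with at least 500 UMIs in both libraries. They made up 61 of the neonatal and 45 of the adult cells. Ratios without them are given for Fcrl5 and Fcrla between the libraries and for Fcrl5, Cd72, Fcrl1 and Pirb between the classes. There is 1 library per age, so no difference was tested. Age, library and the sex of the pooled mice cannot be told apart. Intervals are exact 95% intervals that cover counting error only.

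The members lie in a few groups on the genome (build mm10; positions from GENCODE vM21 on the same assembly). Fcrla (chromosome 1, 170917576 to 170927583) and Fcgr2b (chromosome 1, 170958617 to 170976547) are neighbours on the minus strand, 31.0 kb apart. Fcrl1 (chromosome 3, 87376387 to 87402934) and Fcrl5 (chromosome 3, 87435773 to 87500678) are 32.8 kb apart on the plus strand. Pirb (chromosome 7, 3711409 to 3720391) lies 116 kb from Pira2 (chromosome 7, 3836812 to 3845051), a closely related activating paralog. Reads that fit both genes could therefore have affected the count of either. Cd72 (chromosome 4, 43446462 to 43454628) overlaps at its 3′ end with Tesk1 on the opposite strand. Whether the counting used strand is not given in the sources used here. Tesk1 itself was at 19.6 CPM in neonatal and 20.4 CPM in adult cells. Antisense genes that overlap Cd22, Fcgr2b and Ptpn6 had at most 13 UMIs in a library.

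Upstream sequences are shown for the 4 genes on which the results turn. Fcrl5 and Fcrla stood furthest apart between the libraries. Cd72 and Fcrl1 had the lowest ratios of cells with 3 or more class genes, defined further on, over cells with fewer. The sequences are from RefSeq (GRCm38.p6), 5′ to 3′ on the strand of the gene, and reach back to 250 bases before the annotated start. They are the regions chr3:87435532-87435772 (plus strand) for Fcrl5, chr1:170927584-170927833 (minus strand) for Fcrla, chr4:43454629-43454876 (minus strand) for Cd72 and chr3:87376137-87376386 (plus strand) for Fcrl1. Capitals mark matches, on either strand, to CAGGTG (an E-box bound by E2A) or GAGGAA (a core bound by PU.1).
Fcrl5: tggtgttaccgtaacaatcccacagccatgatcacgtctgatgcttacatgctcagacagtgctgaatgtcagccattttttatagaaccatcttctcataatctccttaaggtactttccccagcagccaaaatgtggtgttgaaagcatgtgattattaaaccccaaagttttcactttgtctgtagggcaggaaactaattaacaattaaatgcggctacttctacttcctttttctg
Fcrla: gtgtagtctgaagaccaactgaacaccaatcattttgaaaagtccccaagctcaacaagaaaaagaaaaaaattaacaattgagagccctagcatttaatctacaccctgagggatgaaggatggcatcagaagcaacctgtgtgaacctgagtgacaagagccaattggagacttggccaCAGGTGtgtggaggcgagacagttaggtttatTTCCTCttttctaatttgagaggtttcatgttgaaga
Cd72: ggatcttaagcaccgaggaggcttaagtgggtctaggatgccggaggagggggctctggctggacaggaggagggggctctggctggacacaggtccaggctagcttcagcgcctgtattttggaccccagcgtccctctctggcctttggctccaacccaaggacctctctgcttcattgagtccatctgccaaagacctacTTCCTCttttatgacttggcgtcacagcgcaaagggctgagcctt
Fcrl1: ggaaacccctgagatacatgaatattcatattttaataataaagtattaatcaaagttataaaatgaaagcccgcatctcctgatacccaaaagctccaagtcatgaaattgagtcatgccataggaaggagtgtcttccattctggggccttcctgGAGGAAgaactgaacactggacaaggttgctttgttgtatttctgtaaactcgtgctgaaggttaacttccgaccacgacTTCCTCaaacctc
In the full 250 bases, Fcrla held 1 CAGGTG, 69 to 64 bases before its start, and 1 GAGGAA on the opposite strand, 37 to 32 bases before it. Cd72 held 1 match to GAGGAA, 47 to 42 bases before its start, and Fcrl1 held 2. The Fcrl5 sequence matched none of the 4 motifs searched. Of the 10 members, 6 held GAGGAA at an annotated start (Cd72, Siglecg, Pirb, Fcrla, Fcrl1 and Fcmr), beside 23.3% of 32851 mouse upstream sequences of the same length. CAGGTG was held by 4 members (Cd22, Pirb, Fcrla and Ptpn6), beside 17.2% of all. The octamer ATGCAAAT was held by 0 members, beside 1.60% of all, and the EBF1 palindrome (TCCC and GGGA around any 2 bases) by Cd22 alone, beside 0.779%. No matches to these motifs overlapped. They are descriptions of the letters and not of binding.

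In the whole libraries the receptors spanned a wide range of levels, and the order was much the same at both ages. Fcmr, the receptor for the Fc part of IgM, had the most transcripts, at 541 CPM (interval 530 to 553) in neonatal and 614 CPM (605 to 622) in adult cells. Fcrl5 had the fewest, at 7.62 CPM (6.34 to 9.08) and 21.5 CPM (with an upper bound of 23.1). Counts of 3′ ends are not scaled to length, so this order describes captured molecules. Neighbours in the order whose intervals overlapped were Siglecg and Ptpn6 in both libraries, Fcrl1 and Fcgr2b in the neonatal library, and Cd72 and Cd22 in the adult library. No member's level rested on a few cells: the cell with the most UMIs of a member held at most 4.8% of them in a whole library.

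**Figure D1:**
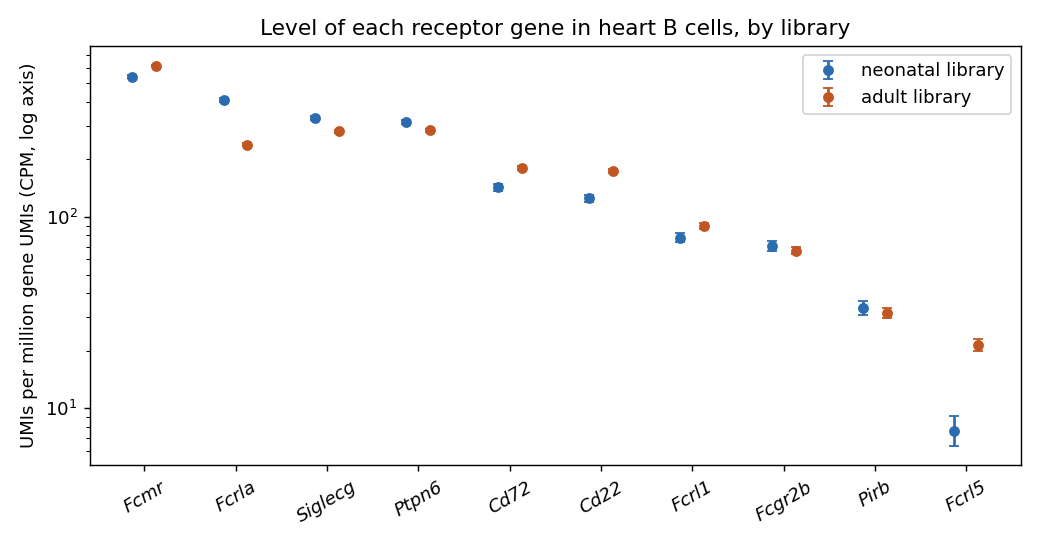
Level of each of the 10 genes in UMIs per 1000000 gene UMIs (CPM, logarithmic axis) in the neonatal (blue) and adult (orange) library; bars are exact Poisson 95% intervals, which cover counting error only. Fcrla is higher in the neonatal library (410 against 239 CPM) and Fcrl5 in the adult library (21.5 against 7.62 CPM).

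Between the libraries, 1 member was at least 1.5-fold higher in the adult cells (Fcrl5) and 1 at least 1.5-fold lower (Fcrla). Among the 10703 genes with at least 50 UMIs, 7.82% were at least 1.5-fold higher and 12.2% at least 1.5-fold lower in the adult library, so a count of 1 in 10 in each direction is near the background. The median log2 ratio of adult over neonatal was 0.05 over the members and -0.13 over all these genes.

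Fcrl5, a receptor with both an inhibitory and an activating type of motif that marks marginal zone and B1 cells in mice, had 125 UMIs in the neonatal and 745 in the adult cells. Its level was 2.82-fold higher in the adult library (log2 ratio 1.5, 1.22 to 1.78). The gap was there in cells of like depth: 0.878 against 6.08 CPM in cells of 4000 to 8000 UMIs, 11.8 against 27.3 CPM at 8000 to 16000, and 18.5 against 29.9 CPM above that. Cells of 2000 to 4000 UMIs held no neonatal UMI of the gene, at 1.57 CPM in the adult library. The adult library was thus the higher in the 3 ranges with UMIs in both, with log2 ratios from 0.69 to 2.79. In the shallowest range the neonatal upper bound of 8.46 CPM lay above the adult level, so no direction can be given there. Without the shared barcodes the log2 ratio was 1.66. With all adult cells set against the 1279 neonatal cells with a Y-linked UMI and no Xist UMI, as in male cells, it was 1.17. That limit was not put on the adult cells, and these groups were not held to like depth.

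Fcrla, an Fc receptor-like protein that stays inside the B cell and binds immunoglobulin in the endoplasmic reticulum, went the other way. It had 410 CPM (400 to 420) in the neonatal and 239 CPM (234 to 244) in the adult library, 1.72-fold lower in the adult cells (log2 ratio -0.78, -0.83 to -0.73). It was lower in the adult cells in all 4 depth ranges (log2 ratios -0.73, -0.82, -0.82 and -0.49 from the shallowest to the deepest), the deepest range being under 1.5-fold. Without the shared barcodes the value was -0.83. Its genomic neighbour Fcgr2b did not share the difference.

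The sialic acid-binding lectins of the list differed by less. Cd22, which recruits SHP-1 to the B cell receptor, was at 125 CPM (120 to 131) in neonatal and 174 CPM (170 to 179) in adult cells, a log2 ratio of 0.47 (0.40 to 0.55). Siglecg, its relative that restrains B1 cells, was at 329 CPM (320 to 338) and 280 CPM (274 to 285), a log2 ratio of -0.23 (-0.28 to -0.19). The 2 lectins therefore leaned in opposite directions. A scaling by the median of ratios in place of the total moves all log2 ratios of the age comparison up by 0.13. Cd22 then reached 0.61 and passed 1.5-fold. That made 2 members higher and 1 lower, beside 10.6% and 8.01% of all genes under that scaling. The Siglecg difference was at -0.05 and 0.00 in cells of 8000 to 16000 UMIs and above, where its intervals spanned 0, and at -0.39 and -0.63 in the shallower ranges.

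Cd72, an inhibitory receptor of the C-type lectin family, was at 143 CPM in neonatal and 180 CPM in adult cells (log2 ratio 0.33, 0.26 to 0.40). Fcrl1, which carries activating motifs, was at 77.8 and 89.8 CPM (0.21, 0.11 to 0.30), and Fcmr had a ratio of 0.18 (0.14 to 0.22). These 3 were a little higher in the adult library as a whole, by amounts that varied with depth. Fcmr had log2 ratios of 0.70, 0.32, 0.00 and 0.26 from the shallowest to the deepest range, past 1.5-fold in the first and level in the third. Fcrl1 had -0.31, 0.29, 0.14 and 0.62, past 1.5-fold in the last, and Cd72 had -0.20, 0.48, 0.38 and 0.55. The negative values of Fcrl1 and Cd72, at 2000 to 4000 UMIs, had intervals that spanned 0.

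For the IgG receptor Fcgr2b and for Pirb, a receptor for MHC class I, the intervals of the whole-library ratios spanned 0. Fcgr2b had 70.7 CPM (66.7 to 74.9) in neonatal and 66.6 CPM (63.9 to 69.3) in adult cells, and Pirb had 33.3 CPM (30.6 to 36.3) and 31.5 CPM (29.6 to 33.4). Their log2 ratios of -0.09 (-0.19 to 0.02) and -0.08 (-0.23 to 0.07) turned to 0.05 and 0.05 with the median of ratios. Some groups of cells did stand apart: Pirb was lower in the adult library in cells of 2000 to 4000 UMIs (52.8 CPM in neonatal and 22.4 CPM in adult cells, log2 ratio -1.24, -1.96 to -0.47), and Fcgr2b was lower in cells of 16000 or more (-0.26, -0.44 to -0.07). In cells with fewer than 3 of the class genes defined further on, the ratios were -0.22 (-0.41 to -0.03) for Pirb and -0.13 (-0.26 to -0.01) for Fcgr2b. Ptpn6, the phosphatase that most of these receptors recruit, was at 313 CPM (305 to 322) and 284 CPM (278 to 290), a ratio of -0.14 (-0.19 to -0.09). Its value ran from -1.01 in cells of 2000 to 4000 UMIs to 0.26 in cells of 16000 or more, so the direction for Ptpn6 depended on the depth of the cells compared.

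Shares of cells with a UMI tell the same of Fcrl5 and Fcrla when every cell is thinned to 2000 UMIs. Fcrl5 was then seen in 0.674% of neonatal cells (0.369 to 1.13%) and 2.49% of adult cells (2.01 to 3.05%), against 3.80% and 12.5% before thinning. Fcrla was seen in 53.8% (51.6 to 55.9%) and 36.5% (35.0 to 38.1%), against 87.2% and 72.3% unthinned. If each cell held the free RNA of a mean near-empty droplet, 0.00938% and 0.0379% of thinned cells would show Fcrl5 and 0.804% and 0.862% Fcrla. Free RNA in droplets that held a cell was not measured, and its part in the shares was not tested. A thinned cell of either library held transcripts of a median of 3 of the 10 genes, and 3.85% of neonatal and 3.32% of adult cells held none. The 14 neonatal droplets of the same size without a Cd79a UMI held 0 UMIs of Cd22, 2 of Fcrla and 1 each of Siglecg, Cd72, Fcrl1 and Fcmr, and they were too few to bear on Fcrl5. They held 14 UMIs of Pirb (129 CPM), 7 of Fcgr2b (64.4 CPM) and 18 of Ptpn6 (166 CPM), genes that myeloid cells also express.

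The cells were next divided by a set of 6 genes (Bhlhe41, Zbtb32, Ctla4, Cd9, S100a6 and Nid1) that B1 and other innate-like B cells are known for. Cells with a UMI of 3 or more of them numbered 177 of 2077 in the neonatal library (8.52%, 7.36 to 9.81%) and 580 of 3611 in the adult library (16.1%, 14.9 to 17.3%). All 4 B1 markers that were not among the 6 (Cd5, Spn, Itgam and Il5ra) were at least 1.5-fold higher in these cells in both libraries, summing to 95.7 against 31.6 CPM in the neonatal and 94.2 against 34.7 CPM in the adult cells. The follicular genes Fcer2a and Ighd were lower in both. Genes of other cells moved with the class too: the T cell markers summed to 19.1 against 4.83 CPM in neonatal and 15.4 against 5.38 CPM in adult cells, and the neutrophil markers to 63.3 against 17.1 CPM and 0 against 0.0456 CPM. Plasma cell genes summed to 326 against 95.1 CPM in neonatal and 109 against 218 CPM in adult cells. Jchain was 5.31-fold higher in the neonatal and 3.96-fold lower in the adult cells with 3 or more. The other genes of this list did not all follow Jchain. Prdm1 was higher in both libraries (18.6 against 5.60 CPM and 24.7 against 5.47 CPM). Sdc1 was lower in both (2.81 against 7.63 CPM and 2.60 against 7.52 CPM). Xbp1 was 1.89-fold higher in the neonatal library and within 1.5-fold in the adult one. An alternative left out droplets with UMIs of 2 or more markers of 1 other cell type (macrophages, T cells, neutrophils or NK cells). It kept 167 neonatal and 561 adult cells with 3 or more class genes. The median log2 ratio over the members was then -0.34 and -0.07, against -0.34 and -0.05 with all cells. Plasma cell genes were not part of that alternative, and their part in the results was not tested. The division is a range along a count and not a cell type: 122 neonatal and 306 adult cells had exactly 2 of the genes, and 63 and 201 had exactly 3. Depth moves with it, as a deep cell can show more genes. Median depth was 15881 UMIs with 3 or more against 5821.5 with fewer in the neonatal library, and 16550 against 5150 in the adult library. The depth ranges used further on narrow this gap but do not close it. At 8000 to 16000 UMIs the medians were 12319 against 10168 in neonatal and 12234.5 against 10318 in adult cells. In cells of 16000 or more they were 23951.5 against 20195 and 25018.5 against 21625. In adult cells of 4000 to 8000 UMIs they were 7106 against 4989. When cells were thinned to 2000 UMIs before counting, 26 neonatal and 58 adult cells still had 3 or more. These were 1.25% (0.819 to 1.83%) and 1.61% (1.22 to 2.07%) of cells, with intervals that overlapped. The larger adult share given above is therefore that of cells as sequenced.

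In the neonatal library 1 member was at least 1.5-fold higher in the cells with 3 or more class genes (Fcrl5; 9.42% of 9250 genes were higher by as much) and 3 were lower (Cd72, Fcrl1 and Ptpn6; 13.2% of genes). In the adult library 1 was higher (Fcrl5; 7% of 10153 genes) and 1 lower (Cd72; 5.57% of genes), Fcrl1 falling just short. The count of 3 lower members of 10 in the neonatal library is above the background share, and the other counts are near it. That count is small, was not tested and includes Ptpn6. The neonatal Ptpn6 ratio was under 1.5-fold in cells of 8000 to 16000 UMIs (-0.40) and of 16000 or more (-0.39). At 8000 to 16000 UMIs, 15.8% of genes were lower by at least 1.5-fold. The median log2 ratio over the members was -0.34 in neonatal cells and -0.05 in adult cells, beside -0.10 and -0.05 over all genes. Scaled by the median of ratios, the neonatal cells had 2 lower members, beside 9.51% of all genes under that scaling. The adult cells had 2 higher ones, beside 7.8%, as Pirb then passed 1.5-fold.

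**Figure D2:**
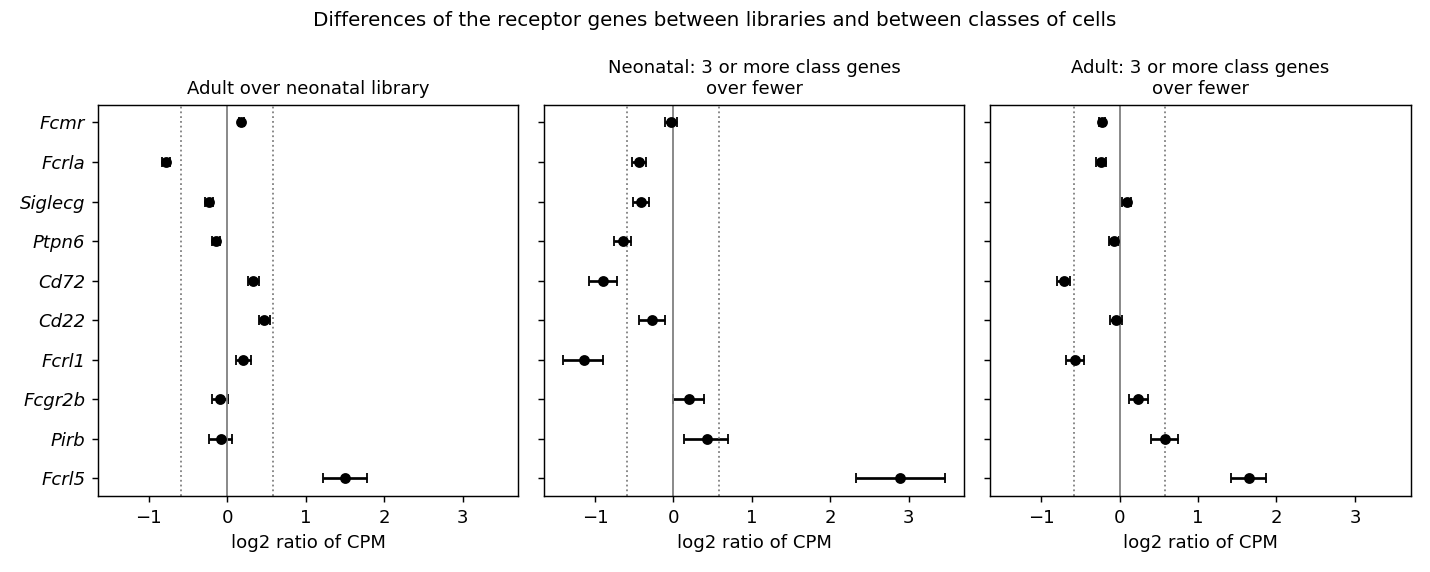
Log2 ratio of CPM for each gene, with exact 95% intervals, for adult over neonatal (left) and for cells with 3 or more class genes over cells with fewer, in the neonatal (middle) and adult (right) library; dotted lines mark 1.5-fold. Fcrl5 lies to the right in all 3 panels (1.5, 2.89 and 1.65), and Cd72 and Fcrl1 lie to the left in both class panels.

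Fcrl5 differed most. In the neonatal library it was at 23.6 CPM (18.9 to 29.3) in cells with 3 or more class genes and 3.19 CPM (2.29 to 4.33) in cells with fewer, 7.41-fold higher (log2 ratio 2.89, 2.33 to 3.46). In the adult library it was at 37.8 CPM (34.5 to 41.3) and 12.1 CPM (10.7 to 13.6), 3.13-fold higher (1.65, 1.43 to 1.87). Thus 84 of the 125 neonatal and 480 of the 745 adult UMIs of this gene were in the cells with 3 or more. The log2 ratio was smaller in the adult library by 1.24 (difference -1.24, -1.82 to -0.66), where the cells with fewer class genes had the higher level. Among cells of 8000 to 16000 UMIs, with 25 against 28 UMIs in the neonatal and 145 against 131 in the adult library, the ratios were 1.55 (0.71 to 2.38) and 1.33 (0.98 to 1.68), and among cells of 16000 or more they were 2.03 (0.82 to 3.54) and 0.92 (0.57 to 1.29). The gap between the libraries was thus small in the first of these ranges and wide in the second, with 6 UMIs in the neonatal cells with fewer class genes. Without the shared barcodes, which held 45 of the 177 neonatal and 39 of the 580 adult cells with 3 or more, they were 3.15 and 1.77.

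Cd72 and Fcrl1 ran against Fcrl5. Cd72 was at 85.5 CPM (76.2 to 95.7) with 3 or more class genes and 159 CPM (152 to 166) with fewer in the neonatal library, and at 128 CPM (122 to 135) and 210 CPM (204 to 216) in the adult library. The log2 ratios were -0.89 (-1.07 to -0.72) and -0.71 (-0.79 to -0.63). Fcrl1 was at 40.0 CPM (33.7 to 47.1) and 88.3 CPM (83.2 to 93.5) in the neonatal library, and at 68.7 CPM (64.2 to 73.4) and 102 CPM (97.9 to 106) in the adult library, log2 ratios of -1.14 (-1.41 to -0.89) and -0.57 (-0.69 to -0.46). Both genes were thus lower in the cells with 3 or more at either age. At 8000 to 16000 UMIs the ratios were -0.87 and -1.08 for Cd72 and -1.37 and -1.0 for Fcrl1. In cells of 16000 or more they were -0.89 and -0.59 for Cd72 and -1.0 and -0.48 for Fcrl1, the last under 1.5-fold. In adult cells of 4000 to 8000 UMIs, Cd72 was at -0.93 (-1.69 to -0.27) and Fcrl1 at -0.35 (-1.26 to 0.44). Leaving out the shared barcodes gave -1.08 and -0.80 for Cd72 and -1.46 and -0.69 for Fcrl1, the last then past 1.5-fold. Tesk1, which overlaps Cd72, was at 13.5 against 21.2 CPM in the neonatal and 18.4 against 21.5 CPM in the adult library.

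**Figure D3:**
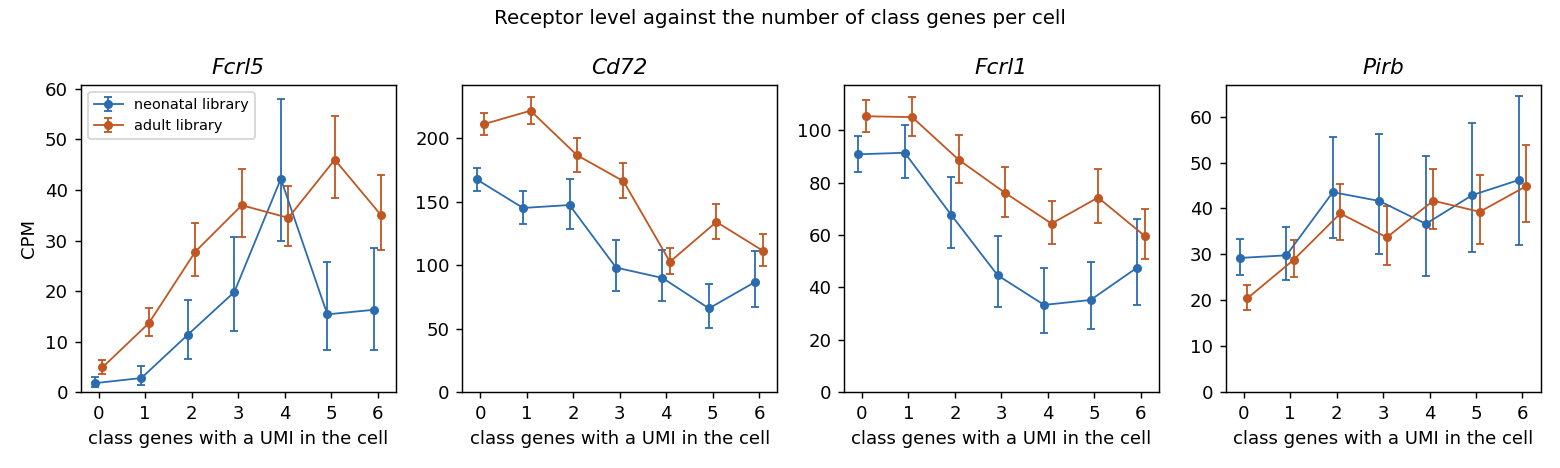
CPM of Fcrl5, Cd72, Fcrl1 and Pirb in cells grouped by how many of the 6 class genes had a UMI, in the neonatal (blue) and adult (orange) library, with exact Poisson 95% intervals. In the adult library Fcrl5 climbs from 4.90 CPM at 0 class genes to 37.0 CPM at 3, while Cd72 goes from 211 to 166 CPM and Fcrl1 from 105 to 76.1 CPM. The groups hold cells of all depths and were not held to like depth.

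These levels differed along the number of class genes and not at the limit of 3 alone. The groups by number of class genes were not held to like depth, and depth moves with that number. The part of depth in these levels was not tested. Fcrl5 in the neonatal library was at 1.80 CPM in cells with none of the 6, 2.81 CPM with 1, 11.4 CPM with exactly 2, 19.8 CPM with exactly 3 and 42.2 CPM with 4, then at 15.4 and 16.3 CPM with 5 and 6. In the adult library it was at 4.90, 13.7, 27.8, 37.0, 34.5, 46.0 and 35.0 CPM from 0 to 6. The highest neonatal value was thus at 4 class genes and the highest adult value at 5. At exactly 2 and exactly 3 class genes, Cd72 was at 147 and 98.1 CPM in the neonatal and 187 and 166 CPM in the adult library, and Fcrl1 at 67.7 and 44.6 CPM and at 88.7 and 76.1 CPM. Around the limit on depth, 9 neonatal and 22 adult cells lay within 500 UMIs above 2000 and 7 and 15 droplets within 500 below it, too few UMIs in all to compare Fcrl5 across that limit.

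Pirb, by contrast with Cd72, was higher with 3 or more class genes, though by under 1.5-fold: 41.6 against 31.1 CPM in the neonatal library (log2 ratio 0.42, 0.14 to 0.70) and 39.7 against 26.7 CPM in the adult library (0.57, 0.40 to 0.75). Without the shared barcodes the ratios were 0.61 and 0.61, both past 1.5-fold. At 8000 to 16000 UMIs they were 0.41 (-0.10 to 0.91) and 0.70 (0.38 to 1.02), and in cells of 16000 or more 0.01 (-0.53 to 0.57) and 0.31 (0.02 to 0.60), so that in the deepest neonatal cells no difference was seen. Its paralog Pira2 was at 28.1 against 14.6 CPM and 19.8 against 11.6 CPM. The 2 genes, whose counts may both be affected by reads that fit both, were thus higher together. Myeloid cells express both. The macrophage markers summed to 120 against 82.1 CPM in the neonatal library and 15.4 against 16.9 CPM in the adult library. C1qa and C1qb were at 0 in the neonatal cells with fewer class genes. The adult macrophage sum was mostly Lyz2 in the cells with fewer (0.709 against 9.17 CPM), while Cd68 (7.64 against 1.961 CPM) and Adgre1 (5.36 against 2.78 CPM) were higher in the adult cells with 3 or more. With droplets left out that held UMIs of 2 or more markers of 1 other cell type (macrophages, T cells, neutrophils or NK cells), the Pirb ratios were 0.32 and 0.57. Fcgr2b was at 78.5 against 68.6 CPM (log2 ratio 0.20, with an interval that reached 0) and 73.6 against 62.5 CPM (0.24, 0.12 to 0.36). At 8000 to 16000 UMIs the Fcgr2b ratios were 0.23 and -0.03, with intervals that spanned 0, and in cells of 16000 or more they were -0.44 (-0.78 to -0.09) and 0.17 (-0.03 to 0.37). The direction for Fcgr2b in neonatal cells therefore turned with depth.

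Over all depths, Ptpn6 and Siglecg differed with the class in the neonatal cells more than in the adult cells. Ptpn6 was at 217 CPM (202 to 233) with 3 or more class genes and 340 CPM (330 to 350) with fewer in the neonatal library, a log2 ratio of -0.65 (-0.76 to -0.53). In the adult library it was at 276 CPM (266 to 285) and 289 CPM (282 to 296), a ratio of -0.07 (-0.13 to -0.01). Siglecg was at 262 CPM (245 to 279) and 347 CPM (337 to 358), a ratio of -0.41 (-0.51 to -0.30), in the neonatal library, and at 291 CPM (282 to 300) and 273 CPM (266 to 280), a ratio of 0.09 (0.03 to 0.15), in the adult library. The class ratios of the libraries differed by 0.58 (0.45 to 0.70) for Ptpn6 and 0.50 (0.38 to 0.62) for Siglecg, in counting error alone. At 8000 to 16000 UMIs, Ptpn6 had ratios of -0.40 and -0.22, and Siglecg -0.23 and 0.27. The Siglecg difference was thus no smaller in the adult cells there. In cells of 16000 or more, Ptpn6 had -0.39 and -0.07 (-0.17 to 0.02), and Siglecg -0.24 and 0.07 (-0.03 to 0.17). The 22 adult cells with 3 or more class genes at 4000 to 8000 UMIs had a Siglecg ratio of -0.42 (-0.97 to 0.08). Cells of 4000 to 8000 UMIs with Vpreb3 but neither Cr2 nor Fcer2a were high in both genes in the neonatal library, as given further on. Over all depths, 18 of 749 such neonatal and 14 of 267 such adult cells had 3 or more class genes. For neonatal cells with Fcer2a and no Cr2 it was 36 of 702, with both 19 of 223, and with Cr2 and no Fcer2a 6 of 120. The adult numbers were 94 of 1260, 237 of 1372 and 93 of 330. Many neonatal cells with 3 or more class genes lay outside all of these groups. The part of these groups in the class ratios was not tested.

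Over all depths, the class differences of the other 3 genes were under 1.5-fold. Cd22 was at 108 against 130 CPM in the neonatal library (log2 ratio -0.27, -0.44 to -0.11) and 171 against 176 CPM in the adult library (-0.04, -0.12 to 0.04), and at 8000 to 16000 UMIs its adult ratio was -0.56 (-0.73 to -0.40). Fcrla was at 321 against 434 CPM (-0.44, -0.53 to -0.34) and 214 against 253 CPM (-0.24, -0.30 to -0.17), lower in both. Fcmr was at 533 against 544 CPM (-0.03, -0.10 to 0.05) and 555 against 647 CPM (-0.22, -0.26 to -0.18). In the neonatal library the Fcmr ratio was 0.40 at 8000 to 16000 UMIs and -0.25 in deeper cells, so no direction can be given for it.

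**Figure D4:**
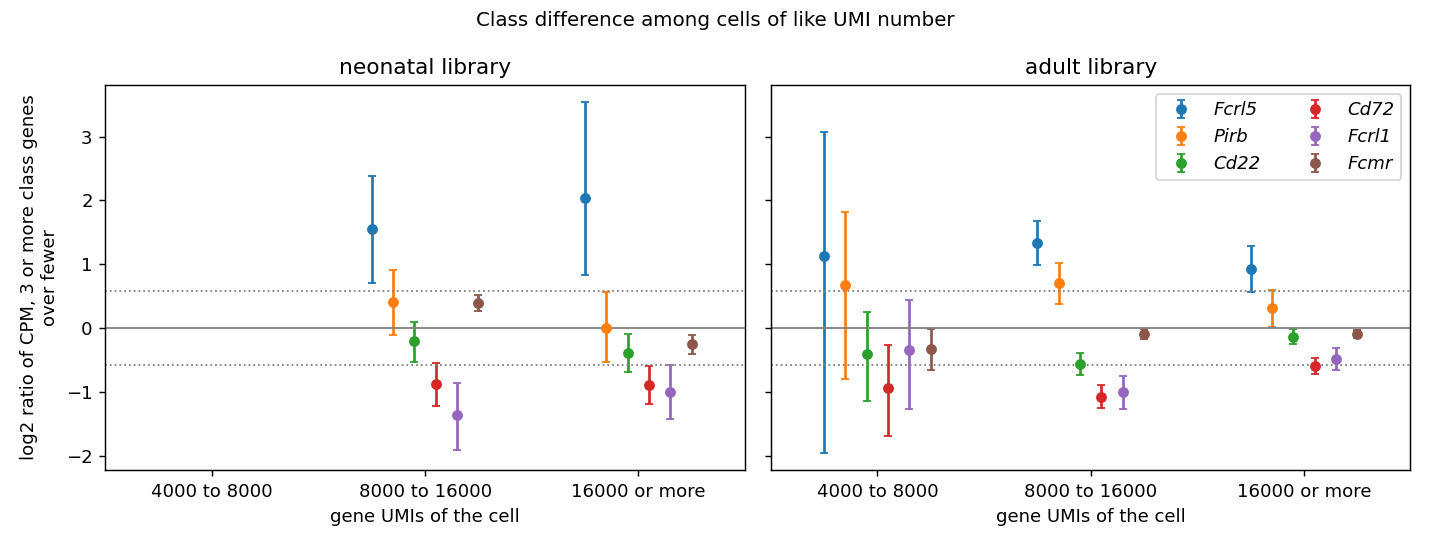
Log2 ratio of CPM in cells with 3 or more class genes over cells with fewer, within ranges of gene UMIs per cell, for 6 genes in the neonatal (left) and adult (right) library; bars are exact 95% intervals and dotted lines mark 1.5-fold. The neonatal library had 4 cells with 3 or more class genes at 4000 to 8000 UMIs and is not drawn there. At 8000 to 16000 UMIs Fcrl5 is above 0 and Cd72 and Fcrl1 are below 0 in both libraries. Within each range drawn, the cells with 3 or more class genes still had the higher median depth.

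Within the class the age difference was recomputed, since the adult library held a larger share of cells with 3 or more class genes. Fcrl5 was higher in the adult library in cells with 3 or more (log2 ratio 0.68, 0.34 to 1.03) and in cells with fewer (1.92, 1.44 to 2.43). Fcrla was lower in both (-0.58, -0.68 to -0.48, and -0.78, -0.84 to -0.73). The difference of these 2 genes between the libraries was thus found on both sides of the limit. In the cells with 3 or more, 3 members were at least 1.5-fold higher in the adult library, beside 7.8% of all genes. They were Cd22, Fcrl1 and Fcrl5, with ratios of 0.67, 0.78 and 0.68. By the same limit 0 were lower, beside 11.6%. In the same cells, Cd72 at 0.584 and Fcrla at -0.583 fell just short of 1.5-fold, which is 0.585 on the log2 scale. Ptpn6 and Siglecg had ratios of 0.34 and 0.15 in these cells, against -0.23 and -0.35 in the cells with fewer.

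Subset transcripts gave a view that the 6 class genes did not use. Within cells of 4000 to 8000 UMIs, those with Vpreb3 and neither Cr2 nor Fcer2a (576 neonatal and 130 adult cells) were set against those with Fcer2a and no Cr2 (497 and 642 cells). Vpreb3 marks young B cells, Fcer2a (CD23) follicular cells and Cr2 (CD21) mature cells, above all of the marginal zone. Siglecg was at 448 CPM in the Vpreb3 cells and 299 CPM in the Fcer2a cells of the neonatal library, and at 340 and 267 CPM in the adult library. Ptpn6 was at 449 and 293 CPM and at 324 and 256 CPM, and Cd72 at 196 and 130 CPM and at 292 and 208 CPM. All 3 genes were thus higher in the Vpreb3 cells at both ages. Fcmr went the other way in the neonatal library, at 426 CPM (403 to 449) in the Vpreb3 cells and 635 CPM (606 to 665) in the Fcer2a cells, while in the adult library it was at 654 and 697 CPM. Fcrl1 was at 75.3 and 98.3 CPM in the neonatal and 107 and 103 CPM in the adult library.

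**Figure D5:**
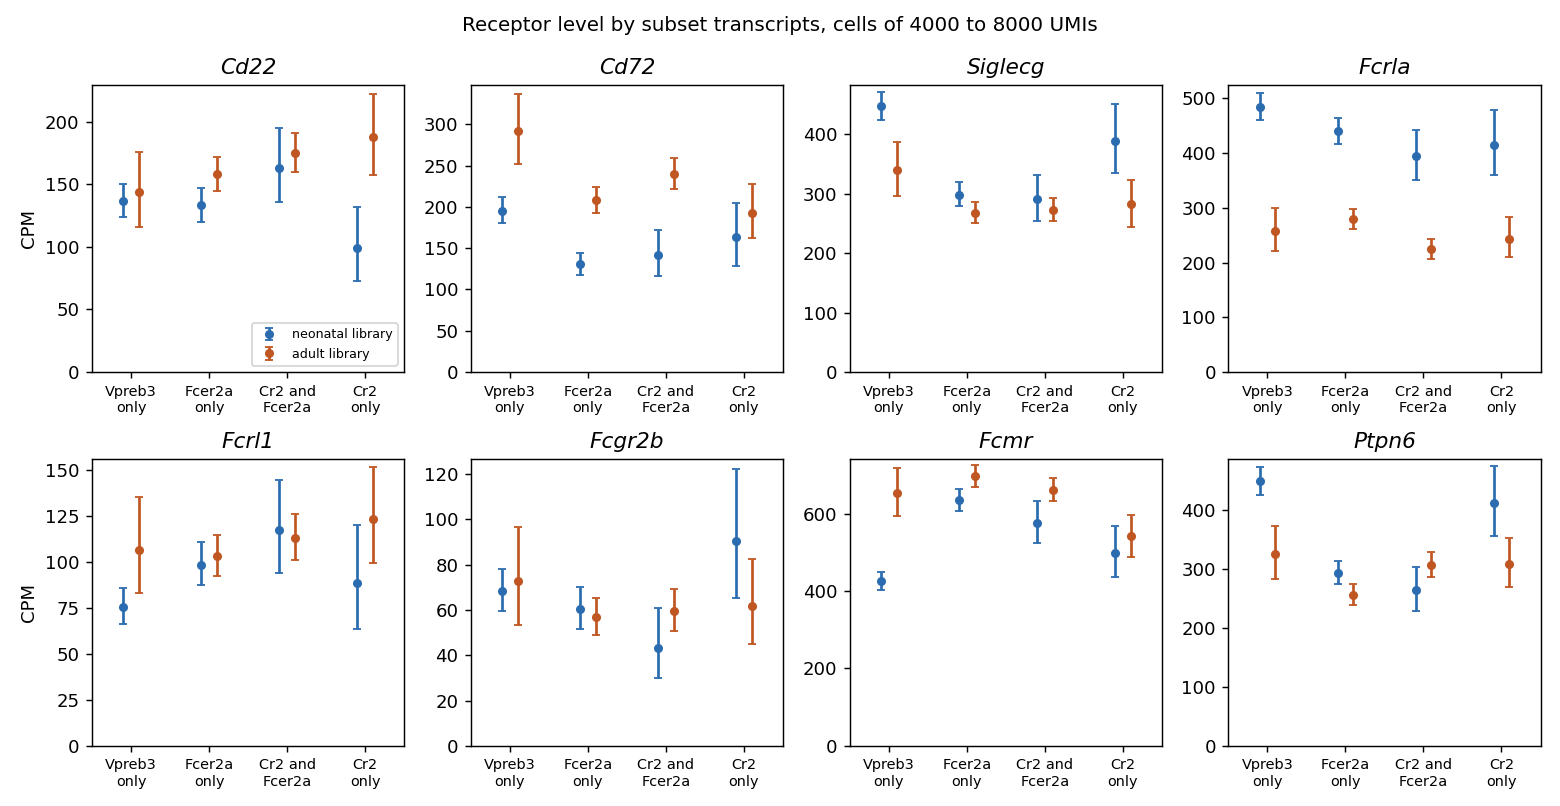
CPM of 8 of the genes in cells of 4000 to 8000 UMIs, grouped by UMIs of Vpreb3 without Cr2 or Fcer2a, Fcer2a without Cr2 (with or without Vpreb3), both Cr2 and Fcer2a, or Cr2 without Fcer2a, in the neonatal (blue) and adult (orange) library; bars are exact Poisson 95% intervals. Fcrla is higher in the neonatal library in all 4 groups, with intervals that do not overlap.

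The age difference of Fcrla was present in every subset: 484 against 258 CPM in the Vpreb3 cells, 440 against 279 CPM in the Fcer2a cells, 395 against 225 CPM in cells with both Cr2 and Fcer2a, and 416 against 244 CPM in cells with Cr2 and no Fcer2a (neonatal against adult). The makeup of the subsets differed between the libraries, with 749 of 2077 neonatal and 267 of 3611 adult cells in the Vpreb3 group over all depths. Fcrl5 had too few UMIs at 4000 to 8000 for this view (2 in the 4 neonatal and 42 in the 4 adult groups). Over all depths of the adult library, it was at 35.9 CPM in cells with Cr2 and no Fcer2a, 19.5 CPM with both, 14.4 CPM with Fcer2a alone and 13.2 CPM in the Vpreb3 cells, and 93 of the 330 cells with Cr2 and no Fcer2a also had 3 or more class genes. These groups were not held to like depth. Adult Fcrl5 rose with depth, at 1.57, 6.08, 27.3 and 29.9 CPM from the shallowest to the deepest range.

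The wider pathway was read from lists of related genes, counting those with at least 50 UMIs. Of 9 genes listed as other inhibitory receptors, 0 were at least 1.5-fold higher in the adult library, beside 7.82% of all genes. There were 5 at least 1.5-fold lower (Cd5, Lair1, Cd300a, Ceacam1 and Cd274), beside 12.2%. Ceacam1 was at 38.0 CPM in neonatal and 18.6 CPM in adult cells. Cd274, which encodes the ligand PD-L1 and not a receptor of this kind, was at 63.9 and 38.8 CPM. Cd300a, at 4.27 and 0.173 CPM, and Lair1, at 3.11 and 1.36 CPM, are also myeloid genes, and the macrophage markers differed between the libraries as given above; their part in this was not tested. T cells, whose markers were higher with 3 or more class genes as given above, express Cd5 and Btla too. With 3 or more class genes (beside 9.42% of all genes higher and 13.2% lower in neonatal cells, and 7% and 5.57% in adult cells), Cd5 and Cd300lf were higher in both libraries (Cd300lf at 36.6 against 2.33 CPM and 18.0 against 3.51 CPM), Lilrb4a was counted in the adult library alone, where it was higher (3.70 against 1.0 CPM), and Btla was lower in the neonatal library (80.7 against 141 CPM) with a ratio of -0.54 in the adult one.

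Among 4 other Fc receptor genes, Fcer2a was higher in the adult library (279 against 171 CPM), beside 7.82% of all genes. The myeloid genes Fcgr4 and Fcer1g were lower (Fcer1g at 3.81 against 27.9 CPM), beside 12.2% of all genes. With 3 or more class genes, Fcer2a was lower in both libraries (46.7 against 205 CPM and 156 against 349 CPM). Fcgr4 passed 1.5-fold upward in both, but its neonatal log2 ratio of 0.61 (-0.25 to 1.41), on 19 against 45 UMIs, had an interval that spanned 0. Fcer1g was higher in the neonatal and Fcgrt lower in the adult library. Of 12 effectors and adaptors downstream of the receptors, 0 were higher and 2 lower in the adult library, near the share of all genes: Dok3, an adaptor that restrains the B cell receptor (87.3 against 139 CPM), and Inppl1, which encodes SHIP-2 (3.21 against 5.43 CPM). Lyn, the kinase that phosphorylates ITIMs, was at 208 CPM in adult and 306 CPM in neonatal cells, a log2 ratio of -0.55 that fell short of 1.5-fold. Ptpn22, a phosphatase that restrains antigen receptor signalling, and Inppl1 were higher with 3 or more class genes in both libraries (Ptpn22 at 102 against 33.8 CPM and 107 against 48.9 CPM), and Pag1 and Sla were lower in the neonatal one. Inpp5d, which encodes SHIP-1, stayed within 1.5-fold in all 3 comparisons. None of the 6 ligand and sialic acid genes (St6gal1, Cmah, Nans, Sema4d, Cd24a and B2m) passed 1.5-fold in any of the 3.

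Among thinned cells, the transcripts of the members had little to do with each other from cell to cell. Over the 45 pairs, Pearson's r of log counts ran from -0.07 to 0.09 in the 2077 neonatal cells and from -0.04 to 0.08 in the 3611 adult cells, which share library and depth. Of 6457 genes compared, those most like Fcmr were Apoe (r of 0.15 and 0.17) and Ighd (0.20 and 0.14), and the one most like Siglecg was Ighm (0.14 and 0.09). For the other members with enough counts, the lower of the 2 values of r stayed under 0.1 for every gene. Counts this sparse keep any such r small.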

How the data were processed

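The deposited values are raw UMI counts per gene and barcode, with no normalization. The authors made them with Cell Ranger (3.0.2 in the file headers, 3.1.0 in their methods) on mm10, and the tables keep all barcodes. Antibody rows held 3 and 2 UMIs and were not used. UMIs were summed over the cells of each group and divided by the summed gene UMIs (CPM). Levels carry exact Poisson, ratios exact conditional binomial and shares exact Clopper-Pearson 95% intervals. With 1 library per age there was no replicate and no test. A gene was counted as higher or lower past a fold of 1.5, and backgrounds use genes with at least 50 UMIs over the groups compared. The named genes are the 10 members, the 6 class genes, markers, and genes of the related lists past that fold; Inpp5d and the ligand genes, within it, were named after their values were seen. The members, lists and class genes were chosen with earlier results of these data known. No doublet caller was run, so pairs of cells caught in 1 droplet, which gating in the sort does not remove, were not estimated; leaving out the 5% largest droplets is among the alternatives. Thinning drew 2000 UMIs from each cell. Alternatives changed the limits on UMIs and mitochondrial share, the scaling, the cells kept and the class limit. Scripts ran under Python 3.11.15 with scipy 1.17.1 for intervals, pandas 2.3.3 and numpy 2.4.6, and were tested on simulated data. Some marker genes of the lists are not reported here.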

Additional observations from a re-analysis of the deposited data

Results flagged for a closer look

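The class difference of Siglecg took opposite signs in the libraries: the log2 ratio of cells with 3 or more class genes over cells with fewer was -0.41 in neonatal and 0.092 in adult cells. The ratios differed by 0.50 (0.38 to 0.62, counting error only), and with 1 library per age the difference was not tested across replicates. In adult cells the Siglecg ratio varied with depth. It was 0.27 at 8000 to 16000 UMIs and 0.07 (-0.03 to 0.17) in deeper cells. At 4000 to 8000 UMIs it was -0.42 (-0.97 to 0.08).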

How the results depend on the processing

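With 1 library per age, counts are limited to what these 2 libraries hold, and Fcrl5 rests on 125 neonatal UMIs. As given above, 1 member was higher and 1 lower in the adult library, 1 was higher and 3 lower in neonatal cells with 3 or more class genes, and 1 was higher and 1 lower in such adult cells. The counts that moved by more than 1.5 times were these; the cause was not tested. With a mitochondrial limit of 5% (60 neonatal and 156 adult cells), 4 were higher in the adult library (7.7% of all genes under that setting), 0 were higher in the neonatal class cells (16.3%) and 3 were lower in the adult class cells (10%), and with no limit 2 were lower in the latter (6.28%). Median-of-ratios scaling gave 2 higher in the adult library (10.6%) and 2 higher in the adult class cells (7.8%), as did a total without immunoglobulin, ribosomal protein and mitochondrial genes for the latter (7.88%). Thinning to 2000 UMIs, where 26 and 58 cells had 3 or more class genes, gave 2 higher and 1 lower in the neonatal (18.4% and 18.3%) and 3 higher and 2 lower in the adult class cells (15.9% and 20.7%). Without the shared barcodes 2 were higher in the neonatal class cells (7.47%), and 2 were higher and 2 lower in the adult ones (7% and 7.2%). The adult class cells also had 2 higher and 2 lower with means over cells (8.68% and 10.5%), without the 5% largest droplets (6.59% and 11.5%), at 4000 to 8000 UMIs (16.1% and 19.9%) and at 8000 to 16000 UMIs (4.63% and 12%), and 2 higher at limits of 2 and of 4 class genes (7.46% and 6.55%). At 4000 to 8000 UMIs (4 neonatal cells with 3 or more) 0 were higher in the neonatal class cells (24.8%). A fold of 2 left 0 lower in the adult library (3.96%), 1 lower in the neonatal (4.04%) and 0 lower in the adult class cells (1.36%). Over these alternatives, the separate depth ranges given above not included except that of 8000 to 16000 UMIs, Fcrl5 was higher in the adult library (log2 ratios 1.17 to 2.04) and Fcrla lower (-0.86 to -0.48). With all depth ranges included, the Fcrl5 ratios ran from 0.69 to 2.79, with no neonatal UMI at 2000 to 4000. In the class comparison Fcrl5 ran from 1.55 to 3.65 in neonatal and 1.09 to 2.36 in adult cells (0.92 in adult cells of 16000 UMIs or more), with no ratio for neonatal cells of 4000 to 8000 UMIs, where the 4 cells held none of its UMIs, or with the mitochondrial limit of 5%. Cd72 ran from -2.11 to -0.48 and from -1.92 to -0.59, and Fcrl1 from -2.53 to -0.92 and from -1.0 to -0.27. Signs changed under some alternatives for Fcgr2b, Pirb and Ptpn6 between the libraries, for Cd22, Fcgr2b, Fcmr, Fcrla and Pirb in the neonatal and for Cd22, Fcgr2b, Pirb, Ptpn6 and Siglecg in the adult class comparison. With gene minimums of 1 and 10 UMIs, the background of genes higher in the adult library was 9.73% and 11.1%, and of genes lower 18.8% and 16.2%. The window of 8000 to 16000 UMIs and a class of 3 of 5 genes without S100a6 were added after the data were seen. No paired analysis was possible because each age is 1 library.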
